A study of Mus musculus with 16 samples.

Results

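The ribosomal protein genes are described here in NIH3T3 cells exposed to the proteasome inhibitor bortezomib. They were chosen by symbol (Rpl or Rps, a number and an optional suffix), with Rps27a left out because it encodes a ubiquitin fusion, and the rule used no measured value. It took 79 of the 23356 genes in the tables, 48 of the large (60S) and 31 of the small (40S) ribosomal subunit. NIH3T3 is an established mouse fibroblast line. All cells carried a stably introduced fusion of a destabilizing domain with superfolder GFP (DD-sfGFP), and the study's methods say that they had been sorted for high levels of it. RNA was sequenced from untreated control cells (0 min) and after 45, 135 and 405 min in bortezomib, with 4 replicate libraries in each of the 4 groups. The labels give no dose of bortezomib. No cells kept for the same times without the drug were analysed here, and thus drug and elapsed time cannot be told apart.

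Ribosomal proteins are made in equal numbers, because each ribosome holds a single copy of nearly every one, and their mRNAs are among the most abundant of a growing cell. Most of these mRNAs begin with a C followed by a run of pyrimidines, the 5′ terminal oligopyrimidine (TOP) tract, through which the mTOR pathway and the protein Larp1 control their translation together. Excess ribosomal proteins are degraded by the proteasome, the target of bortezomib. Free Rpl5, Rpl11 and Rpl23 can bind Mdm2, the ubiquitin ligase of p53. Some members have a paralog in the genome whose use is restricted to certain tissues, and most have many processed pseudogenes, intronless copies that resemble the mRNA.

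A pyrimidine run at the annotated start, the feature by which TOP mRNAs are known, stood in a minority of these genes in the reference sequence, and examples with and without it are shown. The windows below hold 15 bases before and 15 bases from the annotated start, 5′ to 3′ on the strand of the gene, from RefSeq promoters of the build GRCm38.p6. Capitals mark the pyrimidine run in the first 3 and the start base alone in the last 2, which belong to paralogs without such a run there. The absence is not particular to paralogs, since core members such as Rpl5, Rpl11 and Rpl4 have none at the annotated start either.

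Rps6: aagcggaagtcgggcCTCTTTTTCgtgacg

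Rpl38: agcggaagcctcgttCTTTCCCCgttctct

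Rps27: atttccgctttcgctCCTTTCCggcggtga

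Rpl10l: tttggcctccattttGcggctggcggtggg

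Rpl7l1: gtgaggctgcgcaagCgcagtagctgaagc

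The windows lie at chr4:86857353-86857382 (Rps6, minus strand), chr11:114668565-114668594 (Rpl38, plus strand), chr3:90213634-90213663 (Rps27, minus strand), chr12:66284387-66284416 (Rpl10l, minus strand) and chr17:46782642-46782671 (Rpl7l1, minus strand). RefSeq promoters were found for 60 members, with 72 start windows. A C at the annotated start followed by at least 4 pyrimidines, read on the strand of the gene, stood in 12 of the 72 windows (16.7%) against 2.51% of all 32851 windows. With the C allowed within 5 bases of the start, it stood in 41.7% of the members' windows against 18.3% of all. The sequence CGGAAG, a core that ETS family factors bind, was looked for on both strands in the 250 bases upstream after the windows had been seen. It stood in 45.8% of the members' windows against 13.6% of all.

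The share of fragments in the 79 genes fell into a low and a high class of libraries that did not follow the time points. In the controls it was 0.494%, 1.15%, 0.387% and 0.344% (replicates 1 to 4, as in all lists of 4 below). In the 45 min libraries it was 8.12%, 9.25%, 0.365% and 0.374%, in the 135 min libraries 8.33%, 5.99%, 0.517% and 0.397%, and in the 405 min libraries 6.60%, 0.846%, 4.14% and 8.40%. No library lay between 1.15% and 4.14%, and 7 libraries exceeded 4%, none of them a control.

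The group means were 0.594% ± 0.376 in control, 4.53% ± 4.82 after 45 min, 3.81% ± 3.99 after 135 min and 4.995% ± 3.27 after 405 min (SD, n = 4 each). At 45 and 135 min the SD was larger than the mean, and the 2 low libraries of each of these times lay within the range of the controls. At 405 min the lowest library lay within the range of the controls too. The labels do not say whether replicates came from separate cultures, so the spread may be partly technical.

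**Figure D1:**
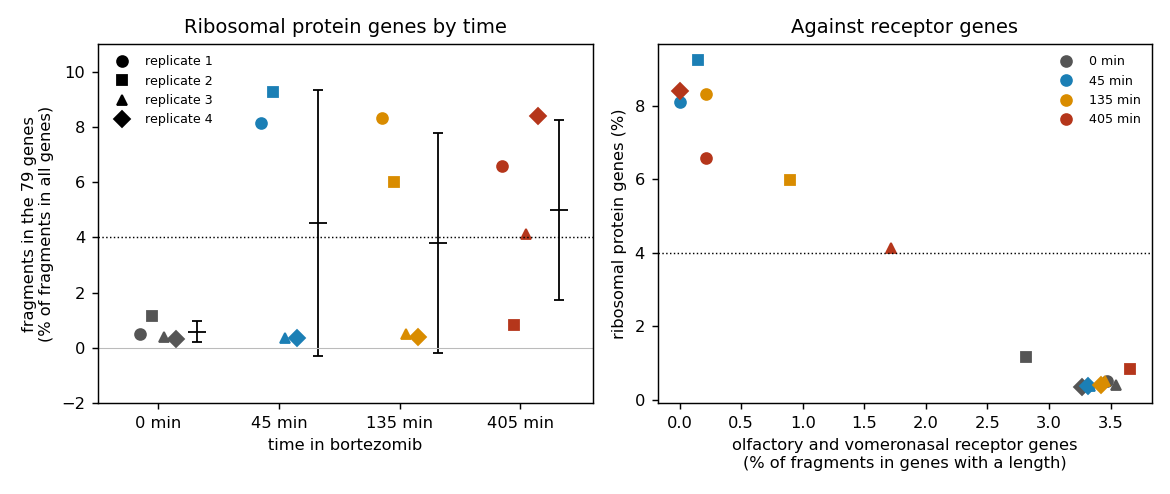
Left, share of fragments in the 79 ribosomal protein genes (% of fragments in all genes) by time in bortezomib, 1 point per library, with the mean and SD of 4 libraries beside each group and a dotted line at 4%. Right, the same share against that of receptor genes of smell and pheromone sensing (olfactory and vomeronasal, % of fragments in genes with an exon length), where the 7 libraries over 4% have receptor shares of 1.72% or less and the other 9 have 2.81% or more.

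The share moved with the composition of the library as a whole. Receptor genes of smell and pheromone sensing (symbols starting Olfr or Vmn), which belong to sensory neurons, took 2.81% to 3.66% of the fragments in genes with an exon length in the 9 libraries under 4% and 0.00346% to 1.72% in the 7 over it. Of the fragments in all genes they took 4.16% to 5.13% and 0.00556% to 2.62%. The receptor share below is the former unless stated. The 10 fibroblast markers, among them Col1a1, Vim and Fn1, were summed. They took 0.0284% to 0.163% in the libraries under 4% and 0.369% to 2.15% in those over it. Not every single marker followed the sum. In 405 min replicate 3 (over 4%, 1385229 fragments), Pdgfrb, Thy1 and Lgals1 had 22, 26 and 18 fragments. The controls (861482 to 891245 fragments) had 22 to 46, 14 to 38 and 3 to 24. Vim and Fn1 had 1653 and 1943 in that library, beside 21 to 362 and 60 to 358 in the controls. Depth was 570323 to 1469951 fragments in the libraries under 4% and 1385229 to 19930375 in those over it. Unlike the sum of the fibroblast markers, those of the epithelial, hematopoietic and neural markers were mostly higher in the libraries under 4%. There they took 0.00881% to 0.0172%, 0.00197% to 0.0110% and 0.00913% to 0.0181%. In the libraries over 4% they took 0% to 0.00787%, 0% to 0.00207% and 0.00158% to 0.00931%. Hbb-b1 and Hba-a1 were at 0 throughout. The part of library composition in the members' values was not tested, other than by the fits with the receptor share given below.

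Set against the length of their exons, members were still above other genes in the libraries under 4%. The members hold 0.185% of the exon length of all genes with a length, and their fragment density was 2.08 to 7.04 times that of all genes in these 9 libraries. In the 7 libraries over 4% it was 23.7 to 49.3 times that of all genes. The density of the receptor genes was 1.25 to 1.63 times that of all genes in the 9 libraries under 4%. It was 0.00154 to 0.765 times that of all genes in the 7 over it. What set these densities was not tested. In a bulk sample, fewer cells of a type and less RNA per cell cannot be told apart.

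Between bortezomib and control, no member passed the threshold in edgeR's quasi-likelihood test, although most had positive fold changes. Of the 79 members, 54 were tested (37 large, 17 small), because a gene needed at least 1 count in every library. At an adjusted p under 0.05, 0 of 54 members were called at each time, and so were 0% of the 5030 genes tested. The smallest adjusted p of a member was 0.285. At an unadjusted p under 0.05, 44 members were higher at 45 min (81.5%, against 12.1% of all genes), 15 at 135 min (27.8%, against 7.83%) and 44 at 405 min (81.5%, against 14.5%). None was lower, against 0.775%, 1.35% and 1.51% of all genes. The log2 fold change was above 0 for 53, 52 and 53 of the 54 members, against 54.9%, 56.2% and 53.1% of all genes. The median of the 54 members was 3.46, 2.68 and 3.75 at the 3 times, and that of all genes tested was 0.14, 0.16 and 0.11. The 3 comparisons share the same control libraries.

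The call depended on the tool. DESeq2 with its default settings called 30 of the 54 members higher at 45 min (4.45% of all genes), 0 at 135 min (0.159%) and 36 at 405 min (6.98%). With its independent filtering set at the same 0.05 as the threshold, a setting chosen after those counts had been seen, it called 44, 21 and 40 (6.56%, 3.44% and 8.03% of all genes). edgeR's exact test called 0, 0 and 1 (0%, 0% and 0.239% of all genes). When the edgeR fit held the log2 of the receptor share as a term, the members' median log2 fold change was 0.49, 1.44 and 1.48, with 0 called. Among only the libraries with a receptor share over 2.5%, it was -0.19 at 45 min and -0.39 at 135 min, with 0 called. All of these libraries had a member share under 4%. This fit thus compared low libraries only and cannot decide whether the high ones differ from control. At 405 min a single library had a receptor share over 2.5%, and no fit was made. By the share of all fragments, an alternative chosen after seeing the data, the limit of 2.5% also let in 405 min replicate 3, whose member share was over 4%. The median was then -0.20, -0.37 and 1.74 at the 3 times, again with 0 called (0%, 0% and 0.182% of all genes were).

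The fold changes are set out below by their values in single libraries. Rpl38, a small protein of the large subunit, had the highest log2 fold change at 45 and 135 min, and at 405 min it and Rpl8 were level at 4.97. Its level was 39.5, 26.7, 5.61 and 20.8 CPM (counts scaled to the library's total) in the controls. After 45 min it was 1392, 892, 16.3 and 3.20 CPM, after 135 min 459, 770.0, 19.3 and 5.68 CPM, and after 405 min 659, 39.0, 151 and 1249 CPM. The 7 libraries above the highest control were those with a member share over 4%. Its log2 fold change at 45 min was 5.10 ± 1.85 (SE, edgeR adjusted p = 0.381).

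Rpl4, also of the large subunit, stood at 99.4, 319, 22.4 and 12.7 CPM in the controls. It stood at 3869, 3304, 19.0 and 16.02 CPM at 45 min, a log2 fold change of 4.46 ± 1.90 (SE, edgeR adjusted p = 0.381). The groups overlapped in both low libraries of 45 min.

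Rpl8, which lies near the peptidyl transferase center, had 9.03, 18.6, 21.3 and 16.2 CPM in the controls and 1217, 31.2, 52.7 and 306 CPM at 405 min. All 4 libraries of 405 min lay above all 4 controls. Its log2 fold change of 4.97 ± 1.20 (SE) had an adjusted p of 0.285 in edgeR's quasi-likelihood test. Among the 54 members, 10 had all 4 libraries of 405 min above all controls (18.5%, against 6.86% of all genes), namely Rpl3, Rpl5, Rpl8, Rpl9, Rpl19, Rpl29, Rps3a1, Rps12, Rps15a and Rps25. At 45 min only Rpl9 did (1.85%, against 1.37%), and at 135 min Rpl8 and Rps25 (3.70%, against 2.47%).

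The lowest fold changes belonged to Rpl7l1, Rpl18 and Rpl29. Rpl7l1, a paralog of Rpl7 found in ribosome precursors, had 136, 88.2, 46.0 and 101 CPM in the controls and 86.4, 53.3, 79.4 and 59.9 CPM at 405 min. Its log2 fold change was -0.18 ± 0.64, -1.34 ± 0.66 and -0.11 ± 0.64 at 45, 135 and 405 min (SE, edgeR adjusted p = 0.895, 0.513 and 0.925). Its level was 1.90 to 86.4 CPM in the libraries over 4% and 25.0 to 136 CPM in those under it, so that the classes overlapped. Rpl18 had a log2 fold change of 0.67 ± 0.82 at 45 min and -0.20 ± 0.82 at 135 min (SE, edgeR adjusted p = 0.745 and 0.942), and Rpl29 one of 1.73 ± 0.79 at 405 min (SE, edgeR adjusted p = 0.302).

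The Mdm2-binding members had fold changes near the median of the members. Rpl5 had 80.2, 115, 66.2 and 25.4 CPM in the controls and 1718, 156, 293 and 1273 CPM at 405 min, so that the 2 groups did not overlap. Its log2 fold change was 3.48 ± 1.40, 2.62 ± 1.35 and 3.98 ± 1.43 at the 3 times (SE, edgeR adjusted p = 0.381, 0.513 and 0.285). That of Rpl11 was 3.49 ± 1.30, 2.56 ± 1.25 and 2.99 ± 1.27 (SE, edgeR adjusted p = 0.381, 0.513 and 0.290). That of Rpl23 was 4.09 ± 1.73, 3.29 ± 1.67 and 4.23 ± 1.75 (SE, edgeR adjusted p = 0.381, 0.513 and 0.285). None of these values differed from 0 at the threshold.

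Between the bortezomib times, 0 of 54 members and 0% of all genes were called in edgeR's quasi-likelihood test. The members' median log2 fold change was -0.82 for 135 against 45 min, 0.93 for 405 against 135 min and 0.14 for 405 against 45 min. At an unadjusted p under 0.05, 0, 3 and 1 members were higher (0.636%, 2.01% and 0.934% of all genes), and none was lower (0.616%, 1.29% and 0.835%). The log2 fold change was above 0 for 4, 46 and 33 members, against 47.4%, 48.7% and 47.6% of all genes. These directions depended on the setting and on single libraries. With the receptor share as a term the medians were 0.87, 0.01 and 0.94, and 52, 29 and 50 members were above 0. With 1 library left out the medians ranged from -1.32 to -0.06, from 0.07 to 1.44 and from -0.50 to 0.77, and 0 to 24, 29 to 54 and 15 to 53 members were above 0. The median for 405 against 45 min turned negative without 45 min replicates 3 or 4 (-0.26 and -0.18) and without 405 min replicates 1 or 4 (-0.01 and -0.50). Among libraries with over 2.5% of all fragments in receptor genes, edgeR called 3 members higher for 405 against 135 min (Rps6, Rps12 and Rps24, with 1.43% of all genes called) and 6 for 405 against 45 min (Rps6 and Rps12 among them, with 0.523%). Each bortezomib time had 2 libraries in that fit, and 405 min replicate 3 alone had a member share over 4%. DESeq2 at both settings and the exact test called 0 members higher in each of the 3 (at most 0.0596% and 0.0199% of all genes).

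Other genes linked to the ribosome were not called either, and their fold changes differed by group. Of 10 ribosome genes outside the symbol rule, 7 were tested, 0 were called, and their median log2 fold change was 3.01, 2.68 and 3.59 at the 3 times. They include Rplp0 of the ribosomal stalk (5.21 ± 1.59 at 405 min, SE, edgeR adjusted p = 0.285). Of 40 ribosome biogenesis genes, 20 were tested, 0 were called, and the median was 0.94, 0.86 and 1.64. The nucleolar proteins Npm1 and Ncl had 3.85 ± 1.71 and 2.96 ± 1.61 at 45 min (SE, edgeR adjusted p = 0.381 and 0.429), and the rRNA methyltransferase Fbl had 0.35 ± 0.63 (adjusted p = 0.795). Larp1, which binds TOP mRNAs, had 0.92 ± 0.71 at 45 min and 2.05 ± 0.74 at 405 min (SE, edgeR adjusted p = 0.596 and 0.285). Of 76 mitochondrial ribosomal protein genes, 10 were tested, 0 were called, and the median was 0.24, 0.20 and 0.26. Their summed share was 0.151% to 0.183% in the libraries under 4% and 0.214% to 0.389% in those over it, where the cytosolic members had 0.344% to 1.15% and 4.14% to 9.25%.

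The ratio of large to small subunit fragments was 1.74, 1.04, 1.58 and 1.40 in the controls. After 45 min it was 1.49, 1.11, 2.28 and 2.29, after 135 min 0.747, 1.27, 1.88 and 1.83, and after 405 min 1.35, 1.16, 0.832 and 1.48. The means were 1.44 ± 0.301, 1.79 ± 0.588, 1.43 ± 0.533 and 1.21 ± 0.283 (SD, n = 4 each), and every pair of groups overlapped. Within 45 and 135 min, the libraries under 4% had the higher ratios. Per kilobase of transcript, the means were 1.20 ± 0.305, 1.57 ± 0.650, 1.24 ± 0.530 and 0.972 ± 0.192. With 48 large and 31 small subunit genes, a ratio of 1 has no special meaning, and only differences between libraries are read here.

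**Figure D2:**
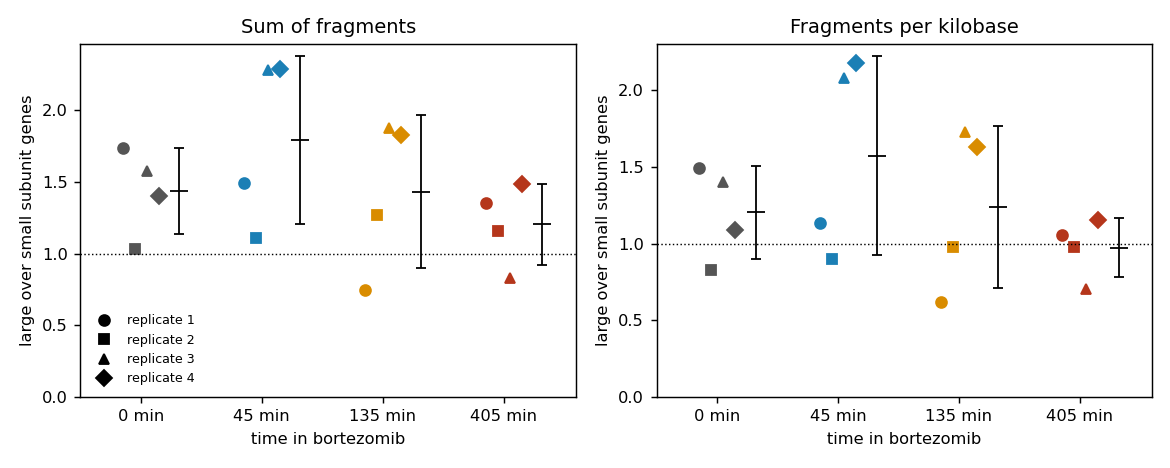
Ratio of large to small subunit fragments by time in bortezomib, as summed fragments (left) and as fragments per kilobase of transcript (right), 1 point per library, with the mean and SD of 4 libraries beside each group and a dotted line at 1. The highest ratios are those of 45 min replicates 3 and 4 (2.28 and 2.29 as summed fragments), and the groups overlap.

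Stoichiometry was compared through each member's share of all member fragments in a library. The likeness of 2 libraries was measured by the Spearman correlation of these shares over the 79 members, as a description, since the points share each library's depth and the members' lengths and copies. The 36 pairs of libraries under 4% had a median of 0.584 and the 21 pairs over 4% a median of 0.771. Only 4 of the 16 libraries had their closest match at their own time.

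Among the 7 libraries over 4%, the profiles formed sets that crossed the times. The profiles of 45 min replicate 1 and 405 min replicate 4 correlated at 0.982. Of the 75 members with at least 10 fragments in both, 72 had shares within 1.5-fold of each other. A second set held 45 min replicate 2, 135 min replicate 1 and 405 min replicate 3, with 0.962 between the first pair and 0.973 between the last pair. Replicate 2 of 135 min correlated with both sets (0.952 with 405 min replicate 4), and 405 min replicate 1 matched no library above 0.771. Pairs of the same time had a median of 0.759 (5 pairs) and pairs of different times one of 0.835 (16 pairs). Control replicate 2, whose share was only 1.15%, correlated at 0.949 with 405 min replicate 3.

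**Figure D3:**
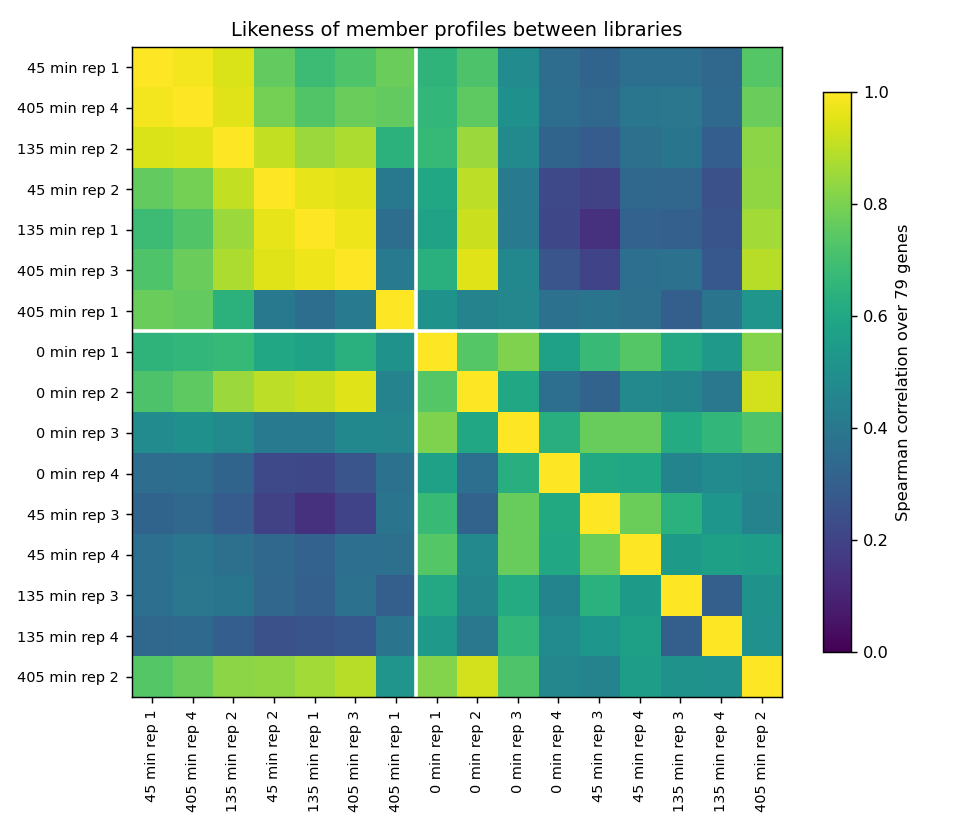
Spearman correlation of member shares over 79 genes between all 16 libraries, with the 7 libraries over 4% first and white lines between the classes. The brightest blocks join libraries of different times, such as 45 min replicate 1 with 405 min replicate 4 (0.982), and 405 min replicate 1 stands apart.

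Rps29 and Rps7, both of the small subunit, show the split between these sets. Rps7 and Rpl34 below were chosen after their values had been seen. The share of Rps29 among member fragments was 2.54% and 2.42% in the first pair (45 min replicate 1, 405 min replicate 4), and 6.21%, 13.2% and 10.4% in the second set (45 min replicate 2, 135 min replicate 1 and 405 min replicate 3). It was 1.16% in 405 min replicate 1. The share of Rps7 was 2.11% and 2.04% in the first pair against 3.17%, 10.5% and 10.4% in the second set. Rpl34, of the large subunit, differed most within the first pair, where 45 min replicate 1 had 0.0156% and 405 min replicate 4 had 0.316%.

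Over these 7 libraries, the coefficient of variation of a member's share had a median of 50.1%, against 1.82% from counting alone. It was over 100% for 16 members and under 30% for 15. Rps23, which lies at the decoding center, was the steadiest (16.1%), with shares of 1.06% to 1.75%. Rps14, Rps19, Rpl26 and Rpl10l varied the most beyond counting error. Of these, Rps14 and Rps19, both of the small subunit and whose human counterparts are lost or mutated in certain anemias, were highest in 405 min replicate 1 (0.270% and 0.840%) and lowest in 135 min replicate 1 and 45 min replicate 2 respectively (0.000381% and 0.0106%). These lowest shares were 1 fragment of Rps14 and 60 of Rps19. Rpl10l had 16 fragments in 135 min replicate 2, 9 in 405 min replicate 1 and 0 in the rest of the 7.

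The GC content of the transcript ran with this variation in some libraries. Across members, the Spearman correlation of GC content with the share relative to the mean of the 7 libraries was -0.459 in 45 min replicate 2 (74 members), -0.462 in 135 min replicate 1 (73 members) and -0.363 in 405 min replicate 3 (74 members). These are the 3 libraries of the second set. It was -0.188 in 135 min replicate 2 (77 members), which belongs to neither set, 0.05 in 45 min replicate 1 (75 members), 0.157 in 405 min replicate 4 (74 members) and 0.378 in 405 min replicate 1 (78 members). With transcript length it lay between -0.180 and 0.174 in all 7. These values are descriptive, since members of 1 library share its preparation, and the part of GC content was not tested.

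**Figure D4:**
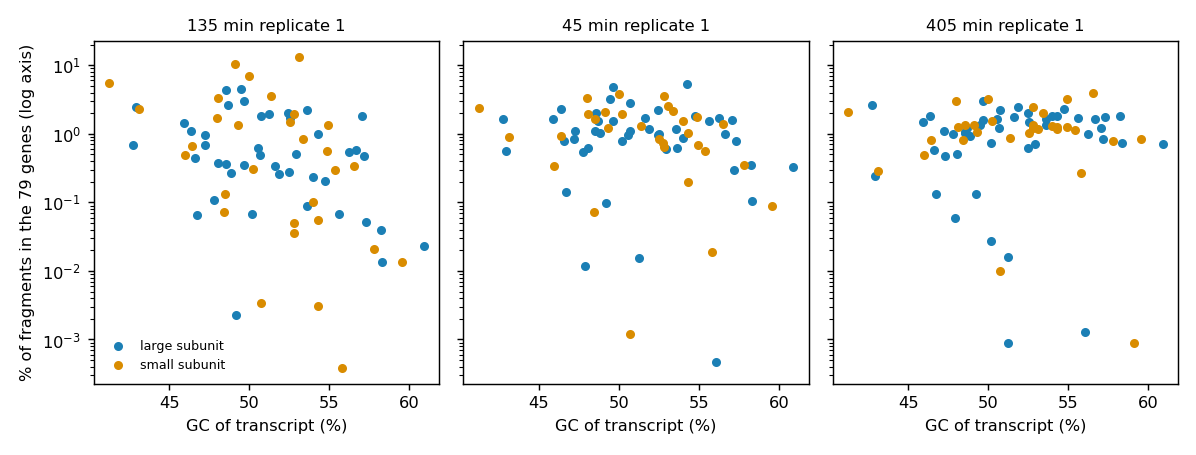
Share of each member among member fragments (%, log axis) against the GC content of its transcript (%) in 3 libraries over 4%, 1 point per member, blue for the large and orange for the small subunit. GC-rich members lie low in 135 min replicate 1 and not in 405 min replicate 1.

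The time course in the libraries over 4% rests on 2 libraries at 45 min, 2 at 135 min and 3 at 405 min, which were chosen by the members' own summed level, so it is given without a test. Of the 73 members seen in all 7, the mean log2 share rose from 45 to 405 min for 34 and fell for 39. Large subunit genes rose in 18 and fell in 26 cases, and small subunit genes rose in 16 and fell in 13. In CPM, 0 of 73 members had all 3 libraries of 405 min above both of 45 min (9.24% of 8605 genes had) and 4 had them all below (5.48%, against 15.9%).

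The largest rises were those of Rps14, Rps19, Rpl18 and Rpl8, by 3.20, 2.13, 2.10 and 1.40 on the log2 scale. In each case the highest value was that of 405 min replicate 1, and without that library the rises were 2.02, 0.81, 1.07 and 0.37. Without 45 min replicate 2 they were 1.49, 0.60, 0.77 and 0.33. Some of these values rest on few fragments. Rps14 had 10 in 45 min replicate 2 and 19 in 405 min replicate 3, and Rps19 had 60 and 16. All 4 transcripts are GC-rich, with 55.8%, 59.6%, 58.3% and 58.2% GC, where the median of the large subunit members is 50.7% and that of the small subunit members 52.8%. The share of Rpl8 was 0.352% and 0.0791% after 45 min, 0.0396% and 0.160% after 135 min, and 1.84%, 0.127% and 0.365% after 405 min. That of Rpl18 was 0.105% and 0.0166% at 45 min and 0.741%, 0.0558% and 0.139% at 405 min. In both, 405 min replicate 4 differed little from 45 min replicate 1, the library whose profile it matched.

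The largest falls were those of Rpl22, Rps27l, Rpl38 and Rpl21, with changes of -0.81, -0.77, -0.66 and -0.64 on the log2 scale. With 1 library left out they ranged from -1.17 to -0.42, -1.56 to -0.09, -1.09 to -0.08 and -1.13 to -0.27. Without 405 min replicate 1 those of Rpl22, Rps27l and Rpl21 were -0.42, -0.09 and -0.38, and without 405 min replicate 3 those of Rpl38 and Rpl21 were -0.08 and -0.42. Without 45 min replicate 1 those of Rpl38 and Rpl21 were -0.24 and -0.27, and without 45 min replicate 2 those of Rpl22 and Rps27l were -0.45 and -0.33. Rpl22, which also binds RNA outside the ribosome, had 1.10% and 1.81% at 45 min and 0.469%, 1.04% and 1.07% at 405 min, where all 3 lay below both. Rpl21 had 5.28% and 3.13% at 45 min and 1.81%, 1.90% and 5.10% at 405 min, and its groups overlapped. Rps6, the substrate of S6 kinase, had 3.85% and 8.39% after 45 min, 6.97% and 5.27% after 135 min, and 3.24%, 6.90% and 4.47% after 405 min, with no order by time. Rpl7a ranged from 0.968% to 1.95% over the 7 libraries, again without an order by time.

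**Figure D5:**
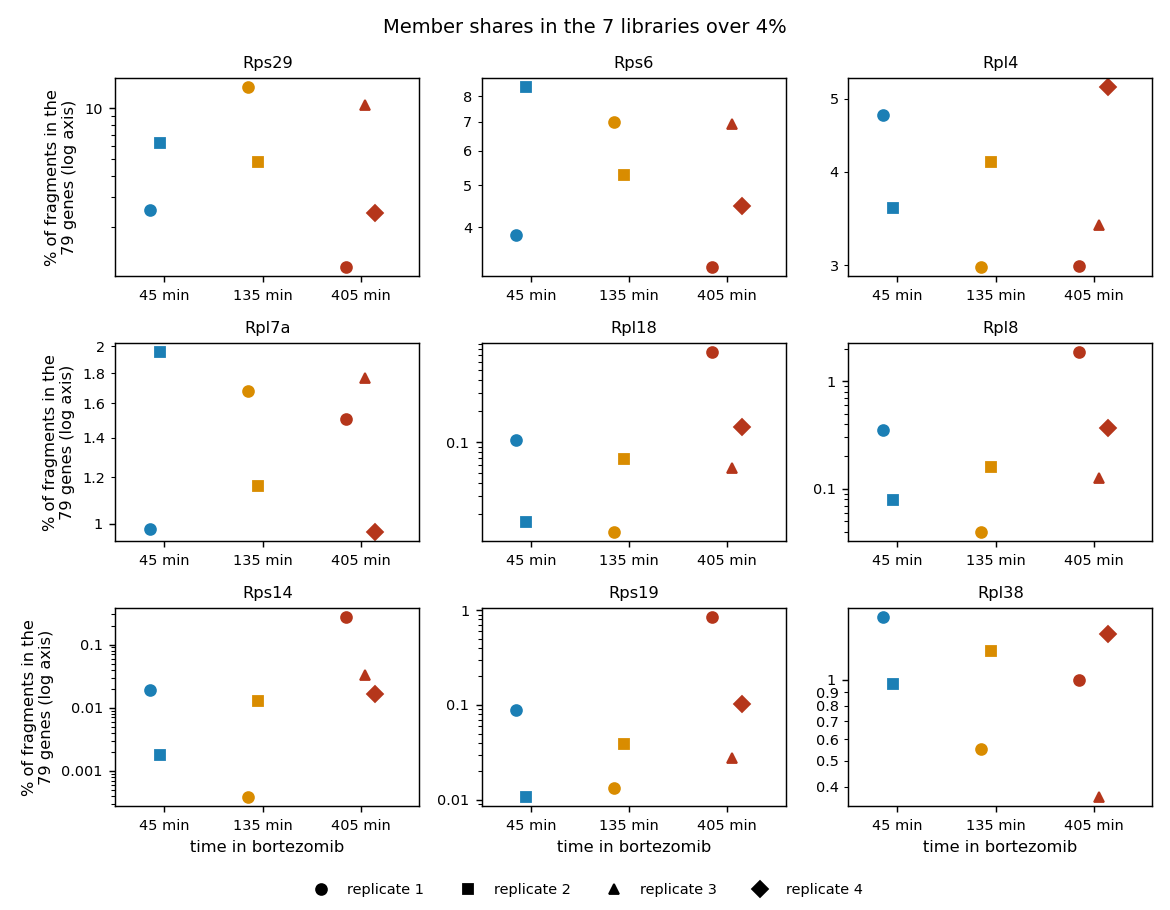
Share of 9 members among member fragments (%, log axis, a separate range in each panel) in the 7 libraries over 4%, by time in bortezomib, 1 point per library. The rises of Rpl18, Rpl8, Rps14 and Rps19 at 405 min come with a high value in replicate 1, and Rps29 and Rps6 have no order by time.

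Among paralogs, Rpl10, Rpl3, Rpl39 and Rps4x carried more fragments than their tissue-restricted or pseudogene forms in each of the libraries over 4%. Rpl10 had 16368 fragments and the testis paralog Rpl10l had 9 in 405 min replicate 1. The counts were 16121 and 0 in 405 min replicate 4. Rpl10l reached its highest count, 45, in control replicate 1, where Rpl10 had 133. Rpl3 had 17655 fragments and the muscle paralog Rpl3l had 7 in 45 min replicate 1, against 67 and 21 in control replicate 1. Rpl39 took 1.23% to 3.09% of member fragments in the 7 libraries and its paralog Rpl39l 0.0655% to 0.181%. Rps4y2, which RefSeq lists as a transcribed pseudogene, had 0 to 28 fragments there beside Rps4x at 0.131% to 1.63%. Rpl22 and Rpl22l1 had no fixed order (0.469% to 1.81% and 0.245% to 2.85%). Rpl22l1 was above Rpl22 in 135 min replicate 1 (2.44% against 0.957%) and 405 min replicate 3 (2.85% against 1.04%), and below it in the other 5.

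The pair of Rps27 and Rps27l went the other way. Rps27, a zinc finger protein of the small subunit, had 0 to 99 fragments in the 7 libraries, while Rps27l took 0.284% to 2.30% of member fragments. Rpl26 was at 0 in 13 libraries and had 59, 77 and 275 fragments in the other 3, and Rpl30 was at 0 in 9 libraries. Both encode core proteins of the large subunit. In all, 25 members were at 0 in at least 1 library. A count of 0 can be a failed assignment where near-identical copies share the reads, so no absence is read from it.

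Copies were counted in the reference genome NCBIM37 by aligning the coding sequence of 78 members. An intronless copy of at least 95% identity over at least 80% of the coding sequence was found for 71, with 567 copies in all, a median of 5.5 for a member and 10 or more for 16 members. Rpl21 had the most (56), and its counts, like those of Rpl7a (32), Rpl29 (28) and Rps2 (below), are uncertain for that reason. The 16 members with 10 or more copies took 22.0% to 30.1% of member fragments in the libraries over 4% and 29.4% to 55.8% in those under it. Across the 78 members, the Spearman correlation of the mean share with the number of copies was 0.275 over 4% and 0.593 under it, and that of the ratio of the 2 mean shares (under to over) was 0.216, as a description.

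The shares of some members differed between the classes, but the leading members were partly the same. In control replicate 2 and 405 min replicate 2, both under 4%, Rps29 (8.73% and 5.02%) and Rps6 (5.42% and 6.08%) were among the highest. They were so too in 135 min replicate 1, over 4% (13.2% and 6.97%). Rps2, of the small subunit and with 29 copies, took 6.10%, 2.75%, 9.37% and 8.84% of member fragments in the controls, and 0.294% to 3.93% in the 7 libraries over 4%. Rpl7a took 4.37%, 2.59%, 5.25% and 4.74% in the controls. Rpl4, with 1 copy, took 0.370% to 2.99% in the libraries under 4% and 2.98% to 5.18% in those over it. Per kilobase of transcript, Rps29 had the highest mean share in the 7 libraries (10.5%), ahead of Rpl23a (4.74%) and Rps6 (4.53%), but the libraries of Rps29 spread 11.4-fold.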

How the data were processed

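RNA-seq libraries (NuGEN Encore Complete kit, per the labels) were made from total RNA of 16 NIH3T3 samples, and the study's methods also describe poly(A) selection. The tables deposited by the authors hold estimated counts per gene (raw fragments), which were used, and scaled fragments and FPKM, which were not. The methods name the mouse assembly mm9, DNAnexus and RefSeq, the submitters' processing notes name mm10, and the aligner and its version are not given in the sources used here. Between 98.4% and 99.8% of values in a library were whole within 0.001, and all were rounded to whole counts. In the file of 45 min replicate 1, 27 symbols turned into dates were restored by row order. There were 0 columns without a sample. No 2 of the 120 pairs of libraries were identical.

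Groups came from the sample titles. Genes with at least 1 count in every library (5030 genes) were fitted with edgeR 4.0.16 (R 4.3.3), TMM factors and the quasi-likelihood test over all 16 libraries, with 12 residual degrees of freedom and Benjamini-Hochberg adjustment over all genes tested, called at 0.05. The standard error is the log2 fold change over the square root of F. Alternatives were filterByExpr, no filter, RLE factors, edgeR's exact test, DESeq2 1.42.0, fits of 2 groups, a replicate block, the receptor share (of fragments in genes with an exon length) as a covariate, libraries with a receptor share over 2.5%, both with the share of all fragments, and leaving out each library. The fit was tested on simulated data. CPM was computed over all fragments without the TMM factors, with a pseudocount of 1 on log scales. The factors were 0.614 to 0.957 in the 7 libraries over 4% and 1.16 to 1.29 in the 9 under it. CPM values and the fold changes of the fits are therefore on different scales. Same-numbered 45 and 135 min libraries deviated alike from their group means (correlation of deviations 0.513 to 0.557). This did not hold throughout the other comparisons. At both times replicates 1 and 2 had a member share over 4% and replicates 3 and 4 one under it, so pairing and library class cannot be told apart. The block changed no call for 135 against 45 min.

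Transcripts, GC content and positions came from GENCODE M1 on NCBIM37, copies from BLAST+ 2.17.0, and start windows from RefSeq on GRCm38.p6, whose coordinates were not mixed. Named genes were paralog groups, Mdm2 binders, extremes of level per kilobase, fold change, rise, fall and variation, and up to 5 members at 0. The members, lists and rules were chosen with earlier results of these data known. Depth was 570323 to 19930375 fragments. The 95% Wilson intervals of the member share, such as 0.480% to 0.509% in control replicate 1, cover counting error only. The labels do not say whether replicates were separate cultures, so p-values measure the spread between these samples, which may be technical.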

Additional observations from a re-analysis of the deposited data

Results flagged for a closer look

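In groups of 4 libraries, a value was noted when its gap to the nearest other library took most of the range of the group (Dixon's ratio at 95%). This was met 13 times in 140 groups. A rate of 5% would give 7, but that rate holds for independent values. Many of these members were named for extreme, variable or zero values, and all share the same libraries. The 13 and the 7 therefore cannot be compared.

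Control replicate 2 stood apart in 3 members. On the log2(CPM + 1) scale it had 9.97 for Rps29, where the other controls had 5.41 to 6.06, and 9.29 for Rps6, where they had 7.37 to 7.50. For Rpl3 it had 5.60, where they had 6.25 to 6.35. This library also had the highest member share of the controls.

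Other values came from members with counts of 0. Rpl26 had 5.36 in 45 min replicate 3, 7.09 in 135 min replicate 3 and 4.25 in 405 min replicate 1, with the other libraries of each group at 0. Rpl30 had 3.42 in 45 min replicate 1 and 2.72 in 135 min replicate 2, again with the others at 0. Rpl3l had 3.49 in 45 min replicate 3, where the others had 0 to 0.47. Rps3 was at 0 in control replicate 4, where the others had 4.74 to 5.25, and Rps14 was at 0 in control replicate 1, where the others had 3.85 to 4.52.

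In the 135 min group, Rps2 had 9.02 in replicate 2, where the others had 8.12 to 8.14, and Rps3 had 5.92 in replicate 1, where the others had 4.64 to 4.82.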

How the results depend on the processing

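The count of members called was 0 in all 6 comparisons in the edgeR quasi-likelihood fits but one, including filterByExpr, no filter, RLE factors, 2-group fits, the receptor covariate and each left-out library (range 0 to 0). The exception used only libraries where receptor genes took over 2.5% of all fragments (added after seeing the data), with 3 called for 405 against 135 min and 6 for 405 against 45 min. DESeq2 called 30 (45 min) and 36 (405 min), and 44, 21 and 40 for the 3 times with its filtering set at 0.05 (added after its first counts had been seen). edgeR's exact test called 1 at 405 min, Rpl8. With the replicate block, 0 members were called. At an unadjusted p under 0.05, 7, 1 and 50 of 54 members were higher, and so were 165, 141 and 786 of 5030 genes. The block took the members' median at 45 min from 3.46 to 2.28. Outside 135 against 45 min, the correlations of same-numbered libraries ran from -0.761 to 0.611 over the comparisons, with at least 1 pair of each below 0.1, so that these libraries were taken to share only a number. With 1 library left out, members higher at an unadjusted p under 0.05 numbered 15 to 50 (45 min), 1 to 33 (135 min) and 27 to 49 (405 min). All genes that were higher numbered 169 to 905, 87 to 878 and 280 to 930. At 135 min the members' share was not always the larger. It was smaller without control replicate 3 (1 of 54 members, 145 of 5031 genes) and without control replicate 4 (1 of 57 members, 166 of 5362 genes). It was also smaller without 135 min replicate 2 (2 of 54 members, 242 of 5030 genes). Without 135 min replicate 1 it was slightly larger (1 of 54 members, 87 of 5655 genes). For 45 min the low member counts came without control replicates 1, 3 and 4 (22, 20 and 15) or 45 min replicates 1 and 2 (20 and 18). For 135 min they came without control replicates 1, 3 and 4 (3, 1 and 1) or 135 min replicates 1 and 2 (1 and 2), and the high ones without its replicates 3 and 4 (32 and 33). For 405 min they came without control replicates 1, 3 and 4 (29, 27 and 28) or 405 min replicate 4 (27).

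Some fold changes turned sign, all with an adjusted p above 0.4. Among libraries with a receptor share over 2.5%, Rpl5 was -0.023 at 45 min and -1.11 at 135 min, Rpl23 -2.39 and -0.69, Rpl38 -1.16 and -1.09, Rpl4 -2.68 at 45 min and Rps29 -2.69 at 135 min. By the share of all fragments these were -0.031 and -1.097 (Rpl5), -2.39 and -0.67 (Rpl23), -1.15 and -1.09 (Rpl38), -2.69 (Rpl4) and -2.67 (Rps29). With the receptor covariate, Rpl23 was -0.11 at 45 min, and -0.055 by the share of all fragments. Rpl7l1 was 0.14 at 45 min and 0.67 at 405 min with filterByExpr, 0.15 and 0.74 without a filter, and between -0.34 and 0.060 at 405 min with 1 library left out (0.060 without 405 min replicate 2). Rpl18 at 135 min was 0.075, 0.093 and 0.0014 with filterByExpr, no filter and the replicate block, and between -0.44 and 0.10 with 1 library left out (0.10 without 135 min replicate 1). By either receptor share, the fits over 2.5% kept only libraries with a member share under 4% at 45 and 135 min. For Rpl4 at 45 min those kept had 19.0 and 16.02 CPM and those left out 3869 and 3304, beside 12.7 to 319 in the controls. The cause of the sign changes was not tested.

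The mean member share ranged, leaving out 1 library, from 0.408% to 0.728% in control, 2.95% to 5.92% after 45 min, 2.30% to 4.95% after 135 min and 3.86% to 6.38% after 405 min, and the large to small ratio from 1.34 to 1.57, 1.63 to 2.02, 1.28 to 1.66 and 1.11 to 1.34. With a receptor share over 2.5%, the 405 min share was 0.846%, a single library (added after seeing the data). The members whose share rose from 45 to 405 min numbered 27 to 44 without 1 library and 15 in CPM. Depth in the libraries under 4% left members with few fragments, and zeros there are not absences.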
